A study of Saccharina japonica with 9 samples.

Results

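The regions described here are 376 stretches of up to 10 kb of the *Saccharina japonica* nuclear scaffolds in which methylated reads were listed in every male gametophyte library and in no female gametophyte library. They were found by cutting each scaffold into bins of 10 kb and adding up the methylated reads of all listed methylated cytosines (mCs) in a bin. A bin was a member if it held at least 10 methylated reads in each of the 3 male libraries and 0 in each of the 3 female libraries. The 376 members were taken from 58954 nuclear bins with a listed mC, and 54255 of these bins reached the male minimum. The members were chosen by their male and female methylated read counts, so these counts are given below as a description and without a test.

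*S. japonica* is a kelp, a brown alga whose life cycle alternates between a large diploid sporophyte and microscopic haploid gametophytes. In brown algae sex is set in the haploid phase: a female gametophyte carries the U and a male gametophyte the V sex chromosome, and the sporophyte that grows from their fusion carries both. The U and V chromosomes share recombining parts and each has a region of its own that does not recombine. DNA methylation in this setting means a methyl group on a cytosine, which can stand in the contexts CpG, CHG or CHH, where H is any base but G.

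Whole-genome bisulfite sequencing reads an unmethylated cytosine as thymine and a methylated cytosine as cytosine. There were 9 libraries of strain Ye-c12, prepared from the entire body: 3 of male gametophytes (MG, 2 months old), 3 of female gametophytes (FG, 2 months old) and 3 of sporophytes (SP, 4 months old, from the crossing of FG and MG). The gametophytes of each sex had been taken from a blade of a Ye-c12 sporophyte and multiplied by cloning, so each gametophyte stage is represented by cloned material of 1 strain and not by a population sample. The study calls the 3 libraries of a stage biological replicates, and no source used here says whether they came from separate cultures, so p-values measure the spread between these libraries. The lists name no gene and no expression, so the labelled sex could not be checked against markers.

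A deposited list holds only cytosines called methylated, with at least 5 reads. A cytosine that is not listed can be unmethylated, can be covered by fewer than 5 reads, or can be missing from the DNA, and these cannot be told apart in the lists. Absence of methylated reads is therefore used below in the sense of absence from the lists. The MG libraries held 5229482 to 6562515 nuclear methylated reads, the FG libraries 3549494 to 6412845 and the SP libraries 694551 to 1787624, and 96.2% to 98.7% of the listed sites of a library rested on a single methylated read.

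Among the 54255 bins that reached the male minimum, 376 or 0.693% had no methylated read in FG. The bins with FG reads were not spread evenly above 0. There were 52 bins with 1 methylated read over the 3 FG libraries, 44 with 2, 98 with 3 to 5, 86 with 6 to 10 and 169 with 11 to 20. The numbers then grew to 1097 bins with 21 to 50 reads, 2568 with 51 to 100, 10552 with 101 to 200 and 39213 with more than 200. The median ratio of FG to MG reads over the bins outside the members was 0.847. Members and bins with few FG reads thus formed a low group, and few bins lay between it and the main group.

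**Figure D1:**
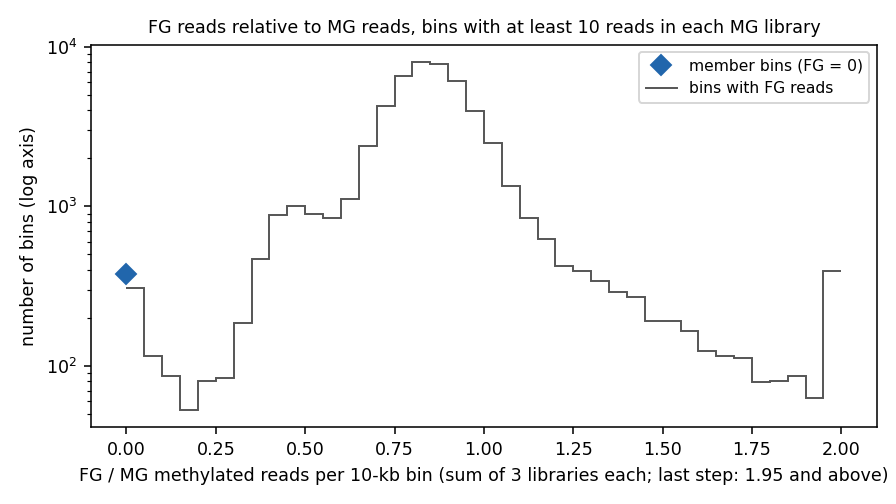
Number of 10-kb bins (log axis) by the ratio of FG to MG methylated reads, each summed over 3 libraries, for the 54255 bins with at least 10 methylated reads in each MG library. The diamond at 0 stands for the 376 members and the stepped line for all other bins, which peak near their median ratio of 0.847.

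The same rule with the sexes exchanged gave 3 bins. These 3 bins lay next to each other on scaffold 2653, from 1 to 30000. The FG libraries had 17, 40 and 101 methylated reads in the first, against 0 in all 3 MG libraries, and it had 2, 0 and 0 in the SP libraries. The second held 16, 33 and 109 reads in FG and the third 13, 20 and 77. The same rule therefore found 376 bins in one direction and 3 in the other. In the edgeR quasi-likelihood test of MG against FG over all nuclear bins, 8.46% of 57915 bins were called higher in MG (Benjamini-Hochberg adjusted p below 0.05), and all 376 members were among them. The rule used this contrast, so nothing is read from that count.

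Members were ordinary in the number of methylated reads they held in males. The median member had 94.5, 98 and 113 methylated reads in MG1, MG2 and MG3, and the median of the other bins that reached the male minimum was 92, 96 and 117. The lowest members had 11, 10 and 10 reads and the highest 1250, 1410 and 1231. Of the 376 members, 308 spanned a full 10 kb up to the last listed position and 68 were shorter, because they lay at the end of a scaffold or on a scaffold under 10 kb. All members together covered 3348.2 kb.

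The 3 members with the most MG reads were neighbours on scaffold 1304. In the bin at 90001-100000 the MG libraries had 1250, 1410 and 1151 methylated reads, against 0 in each FG library and 302, 75 and 78 in SP. The bin at 110001-120000 held 1183, 1224 and 1231 reads in MG, and the bin at 80001-90000 held 1073, 1253 and 1182. These bins exceeded the median member more than 10 times in every MG library. The 3 members with the fewest MG reads were scaffold 4641 at 1-1106 with 13, 10 and 10 reads, scaffold 6717 at 1-1737 with 15, 10 and 10, and scaffold 217 at 1-10000 with 14, 10 and 13. These 3 were also the members just inside the male threshold.

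Just outside the male threshold, without any FG read, stood scaffold 5938 at 1-4925 with 19, 9 and 30 MG reads, scaffold 2956 at 10001-20000 with 9, 16 and 21, and scaffold 8878 at 1-1091 with 9, 25 and 12. Just outside the female threshold were bins with 1 FG read in all. Scaffold 2172 at 30001-40000 had 600, 598 and 495 MG reads and 1 read in FG2. Scaffold 1783 at 70001-80000 had 149, 138 and 174 MG reads, and scaffold 378 at 250001-260000 had 142, 155 and 161, again each with 1 read in FG2. The values on both sides of the thresholds were thus alike, and the count of members depends on where the thresholds stand.

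The SP libraries did not enter the rule, but their reads in the members need not be independent of it. The SP came from the crossing of FG and MG, and SP reads were graded with the FG share of a bin, as given below. The median member had 5, 1 and 1 methylated reads in SP1, SP2 and SP3, while the median of the other bins that reached the male minimum was 30, 12 and 14. A member without any read was found in 19 cases in SP1, 113 in SP2 and 94 in SP3. Of the 376 members, 199 (52.9%) had a methylated read in all 3 SP libraries, 136 in 2, 33 in 1 and 8 in none. Of the other bins that reached the male minimum, 98.7% had a read in all 3. Members were thus present in the sporophyte lists, at lower counts than other bins with a like number of MG reads.

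**Figure D2:**
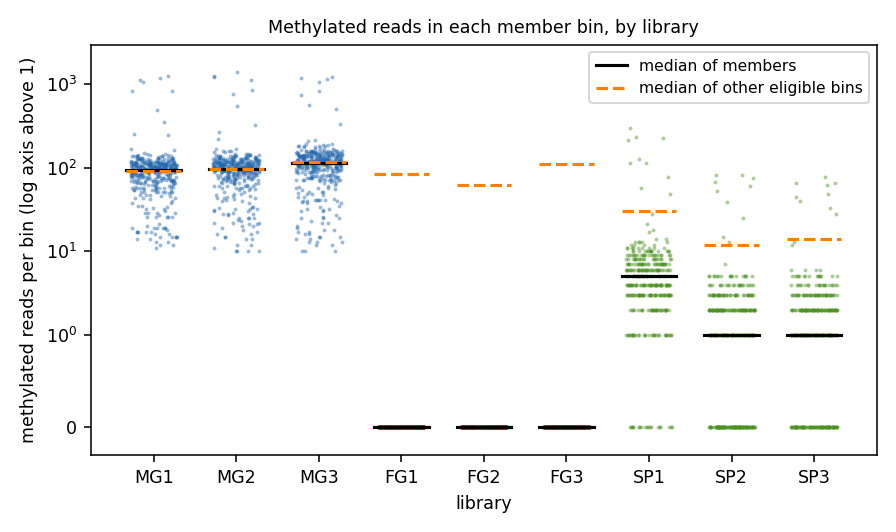
Methylated reads (log axis above 1) in each of the 376 members, 1 point per bin, for the 9 libraries. Black lines are medians of the members and dashed lines medians of the other bins that reached the male minimum, and the 2 lie together in MG (94.5 and 92 in MG1) but apart in SP (5 and 30 in SP1), while FG is at 0 by the rule.

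Per kb of bin, members held 0.296, 0.238 and 0.207 times as many methylated reads as all other nuclear bins in SP1, SP2 and SP3. The mean log2 ratio was -2.03 ± 0.259 (SD, n = 3), negative in 3 of 3 SP libraries (exact two-sided sign-flip permutation test, p = 0.25, the smallest that 3 libraries allow). In the MG libraries, which the rule used, the ratio was 1.16, 1.18 and 1.10.

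Most nuclear bins had more listed methylated reads in MG than in SP, so a call of a member as higher in MG says little by itself. With the mapped reads of the study as library sizes, edgeR called 98.9% of 57459 tested bins higher in MG than in SP, and 375 of the 376 members. The median log2 fold change was 5.21 over the members and 2.60 over all tested bins. Scaling by edgeR's trimmed mean of M-values (TMM), which sets the middle of all bins near 0, moved the median of all bins to 0.01 and that of the members to 2.70. Under TMM, 3.64% of all tested bins and 339 of the 376 members were called higher in MG (edgeR quasi-likelihood test, Benjamini-Hochberg adjusted p below 0.05), and 1 member was called lower, beside 3.23% of all tested bins. The rule asked for 10 MG reads in each library, so 1 side of this contrast was used to choose the members, and the counts and medians are a description with nothing tested by them.

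In 375 members every MG library held more methylated reads than every SP library, as in 99.4% of the other bins that reached the male minimum. The member outside this pattern was scaffold 4577 at 1-4349. It held 21, 25 and 41 methylated reads in MG, against 113, 13 and 33 in SP and 0 in FG. Its log2 fold change of MG against SP was -0.67 with an adjusted p of 0.12 (edgeR quasi-likelihood test), and its groups overlapped. This fit used mapped reads as library sizes, where the median of all tested bins was 2.60, so the bin lay below most others. It was singled out after its values had been seen.

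Scaffold 4577 also held most of the member sites with a high methylation level. The methylation level of a mC (MLmc) is its methylated reads over all its reads. In the 376 members, 5, 2 and 4 listed sites had an MLmc of 0.5 or more in MG1, MG2 and MG3, and of these 2, 1 and 3 were on scaffold 4577. In SP1, SP2 and SP3 there were 6, 1 and 3 such sites, and all of them were on scaffold 4577. The CpG at position 3565 of the plus strand had 23 methylated of 26 reads in SP1, 4 of 5 in SP2 and 6 of 9 in SP3. The CHG at position 2590 of the minus strand had 8 of 8 reads methylated in MG1, 7 of 10 in MG2 and 7 of 10 in MG3, against 13 of 20 in SP1. Sites with 4 or more methylated reads in this bin numbered 2, 1 and 3 in MG1, MG2 and MG3 and 6, 1 and 3 in SP1, SP2 and SP3.

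SP reads were graded with the FG share of a bin. For each 100 methylated reads of a mean MG library, the members gave 8.10, 2.53 and 2.55 reads in SP1, SP2 and SP3. The 190 bins with an FG to MG ratio above 0 and up to 0.02 gave 9.08, 2.77 and 3.32, and the 232 bins above 0.02 and up to 0.1 gave 9.63, 3.26 and 3.70. The 304 bins above 0.1 and up to 0.3 gave 14.8, 5.99 and 6.12. The 47246 bins above 0.5 and up to 1.2, which make up 87.1% of the bins, gave 30.2, 12.2 and 14.1. The bins with few FG reads were thus near the members in SP. Both quantities are divided by the same MG reads, so this order is a description and was not tested.

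**Figure D3:**
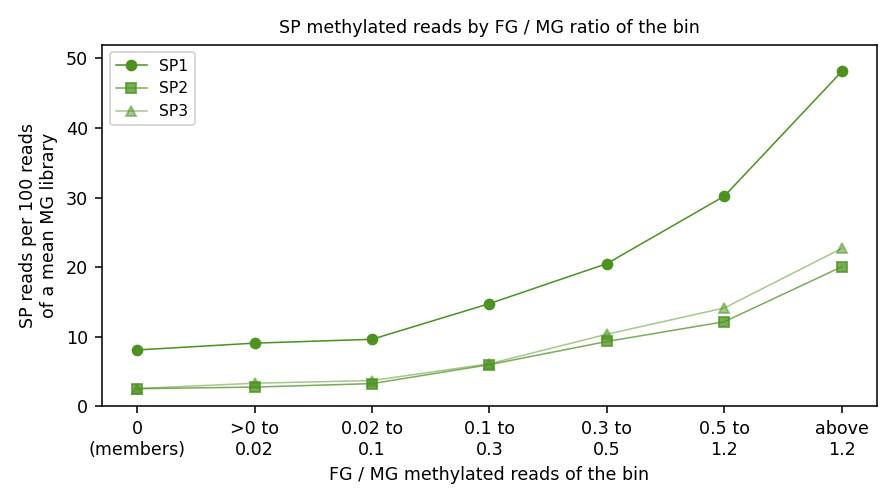
SP methylated reads per 100 methylated reads of a mean MG library (vertical axis), pooled over bins in 7 classes of their FG to MG ratio (horizontal axis), 1 line per SP library. The members at the left had 8.10, 2.53 and 2.55 and the class of 0.5 to 1.2 had 30.2, 12.2 and 14.1.

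In the comparison of FG against SP, all FG reads of the members are 0 by the rule, so a member can be tested only through its SP reads. Of the 376 members, 145 reached 10 methylated reads over the 6 libraries, all through SP. All 145 were called lower in FG, beside 0.403% of 56823 bins tested. A member that passed the filter held SP reads and no FG read. Rule and filter thus favoured this call, and nothing is read from the count.

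The members lay on 144 scaffolds. Of these, 78 held 1 member, and on 32 scaffolds every bin with a listed site was a member, 29 of them scaffolds with 1 bin only. Members stood next to each other in part: they formed 236 runs, of which 151 were single bins, 50 were pairs, 23 were runs of 3, 8 of 4, 2 of 5 and 2 of 7. The 10 scaffolds with the most members held 101 of them, 26.9% of all, among 197 bins with listed sites. Bins of 1 scaffold come from 1 stretch of DNA and are not independent of each other.

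Scaffold 378 held the largest number, with 20 members among 35 bins. Over the whole scaffold it had 3455, 3724 and 4306 methylated reads in MG, against 153, 107 and 140 in FG and 221, 66 and 71 in SP. A typical member of it, at 230001-240000, held 108, 99 and 134 reads in MG and 1 read in each of the 3 SP libraries. The bins between its members were not ordinary bins either. The bin at 120001-130000 held 89, 124 and 101 reads in MG and 2, 0 and 1 in FG. There were 2 exceptions. The bin at 180001-190000 had 163, 149 and 188 reads in MG, 76, 55 and 66 in FG and 25, 12 and 13 in SP, and the last bin, at 340001-343152, had 30, 36 and 60 in MG and 33, 24 and 19 in FG. Every other bin of the scaffold had at least 65 reads in each MG library and at most 18 in any FG library.

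The next 3 scaffolds held 11 members each. Scaffold 788 had 11 of 21 bins, scaffold 907 had 11 of 19 and scaffold 1026 had 11 of 17. Their bins outside the members had FG to MG ratios of 0.0718, 0.105 and 0.087, far below the median of 0.847 over all other bins that reached the male minimum. Scaffold 1121 had 10 members of 16 bins, scaffold 477 had 9 of 30 and scaffold 1211 had 8 of 15, with ratios of 0.110, 0.139 and 0.0901 in their other bins. Scaffolds 1304, 1689 and 766 had 7 each, of 13, 9 and 22 bins. On scaffold 766 the other bins had a ratio of 0.453, and it held 772, 656 and 1058 FG reads in all, against 2378, 2442 and 3183 in MG. Scaffold 766 was thus low in FG over a part of its bins only.

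FG reads on these 10 scaffolds were also counted in windows of 1 kb over all 197 bins, of which 101 were members. Windows in members hold no FG read by the rule, which lowers the share of windows with an FG read. Of 1872 windows of 1 kb with an MG read, 265 (14.2%) had an FG read, and 50% of the 5380 FG reads lay in 44 windows. It took 465 windows to hold 50% of the 82923 MG reads. MG reads could lie in members and FG reads could not, so nothing is read from the difference between these window counts. On scaffold 378, 2 windows held at least 50% of its FG reads. Of the 96 bins on these scaffolds that were not members, 40 had at most 10 reads over the 3 FG libraries and 16 had more than 100.

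Over the 112 scaffolds that also held other bins, the FG to MG ratio of those other bins was below 0.1 on 41 scaffolds, between 0.1 and 0.5 on 47 and at least 0.5 on 24. On the last 24 the other bins were thus listed as methylated in both sexes. The members were in part pieces of scaffolds that were low in FG in most bins and in part isolated bins. Others were runs on scaffolds whose other bins held many FG reads. Scaffold 901 had a run of 4 members and a ratio of 0.713 in its other bins, and scaffold 69 a run of 3 and a ratio of 0.754.

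The longest runs had 7 members each. On scaffold 1026 the run spanned 30001-100000, with 30 to 146 methylated reads per bin and MG library and 0 to 7 per bin and SP library. Its left neighbour at 20001-30000 had 74, 84 and 115 reads in MG and 0, 5 and 1 in FG, and its right neighbour at 100001-110000 had 92, 121 and 167 in MG and 0, 1 and 1 in FG. Both flanks were thus close to membership. On scaffold 1304 the run spanned 50001-120000. Its left neighbour at 40001-50000 had 134, 125 and 160 reads in MG and 9, 5 and 4 in FG. Its right neighbour, the last bin of the scaffold at 120001-128336, had 928, 900 and 875 in MG and 9, 8 and 17 in FG, and 150, 32 and 57 in SP.

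**Figure D4:**
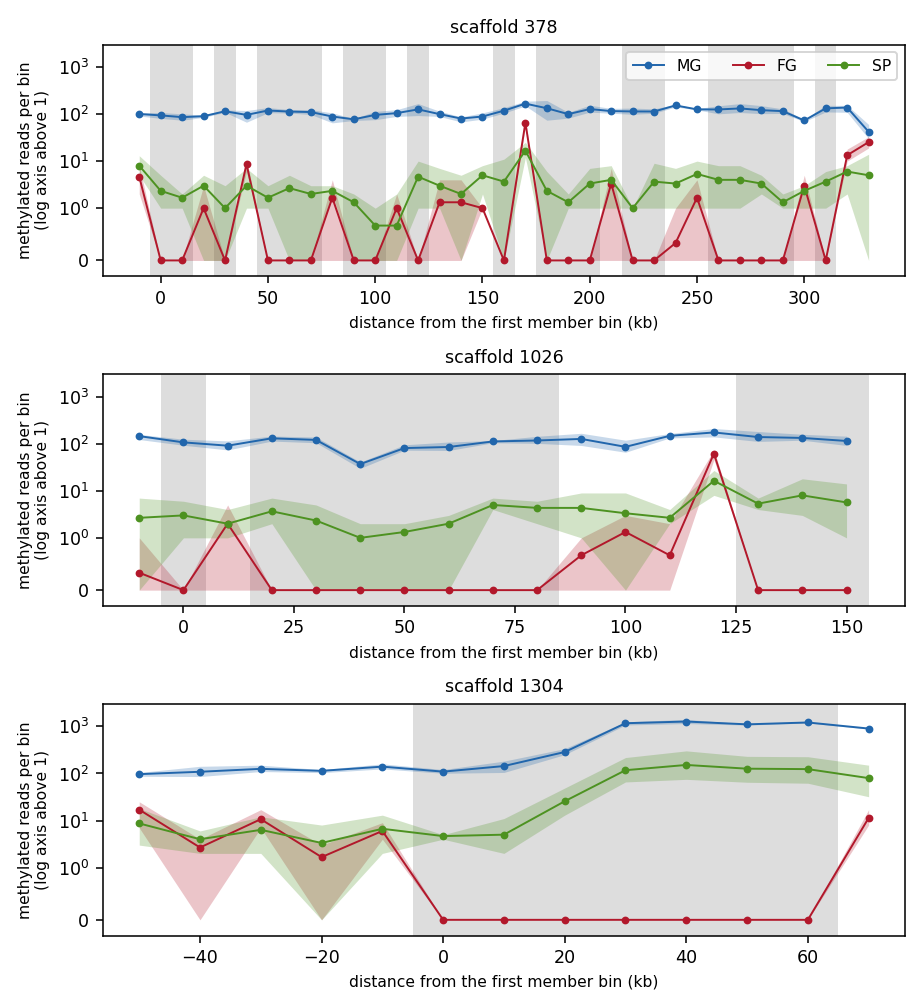
Methylated reads per 10-kb bin (log axis above 1) along scaffolds 378, 1026 and 1304, by distance from the first member bin in kb. Lines are means and bands the range of the 3 libraries of MG, FG and SP, and grey marks the members, where FG is at 0 and a single MG library reaches at most 194 on scaffold 378 and 1410 on scaffold 1304.

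Inside the run of scaffold 1304 the reads were uneven. The bins at 50001-60000 and 60001-70000 held 106, 101 and 121 and 105, 143 and 183 reads in MG. The bin at 70001-80000 held 251, 269 and 337, and the 4 bins from 80001 to 120000 held 1069 to 1410. The same step was seen in SP, where the first 2 bins held 2 to 11 reads per library and the last 4 held 62 to 302. Coverage of the listed sites, the number of reads over each site including the methylated ones the rule used, was higher there too. In the bin at 80001-90000 it was 6.67, 7.18 and 6.97 times the mean of all nuclear bins outside the members in MG, and 3.41, 3.31 and 3.21 times in SP.

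There were 14 such deeply covered members, in which the mean coverage of the listed sites was at least 2 times that of all other nuclear bins in each MG library. This class was set up after the values had been seen, and its values are a description. It held 5 bins of scaffold 1304, 2 of scaffold 954 (150001-160000 and 160001-170000), and 1 each of scaffolds 1047, 2777, 3707, 4678, 5010, 14189 and 15499. Scaffold 954 at 150001-160000 held 840, 763 and 841 methylated reads in MG and 129, 60 and 45 in SP. Scaffold 1047 at 150001-160000 held 822, 847 and 744 in MG and 113, 53 and 49 in SP. The 14 bins made up 2.97% of the length of the members, but 19.9%, 19.8% and 17.3% of their methylated reads in MG and 42.4%, 48.3% and 42.9% in SP.

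In the 14 bins the relative coverage, the mean coverage of listed sites over that of all other nuclear bins, was 5.81 ± 0.0976 in MG and 2.86 ± 0.125 in SP (SD, n = 3 each). The bins were chosen by their MG coverage and nothing was asked of SP, so a lower value in SP is a description. Of the 14 bins, 13 had a listed site in all 6 libraries, and in these 13 it was lower in every SP library than in every MG library. The choice by high MG coverage favours this order. The share of other nuclear bins with the same order was not computed, so nothing is read from this count. The ratio of the SP mean to the MG mean of a bin had a median of 0.478 and a range of 0.403 to 0.617. The methylated reads per kb, relative to all other nuclear bins, were 7.34 ± 0.818 in MG and 3.69 ± 0.632 in SP.

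In the 362 other members the relative coverage was 0.795 ± 0.0173 in MG and 0.640 ± 0.1002 in SP (SD, n = 3 each). The methylated reads per kb, relative to all other nuclear bins, were 0.956 ± 0.0193 in MG and 0.141 ± 0.0297 in SP. Listing requires 5 reads at a site, and the median coverage of listed sites in these members in SP1, SP2 and SP3 was 6, 5 and 5, against 9, 7 and 7 in all other nuclear bins. Of the listed sites of these members, 40.9%, 54.0% and 50.9% had exactly 5 reads in SP1, SP2 and SP3, and 18.4%, 17.6% and 11.0% had so in MG1, MG2 and MG3. How much of the lower SP read counts came from coverage below 5 was not tested.

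**Figure D5:**
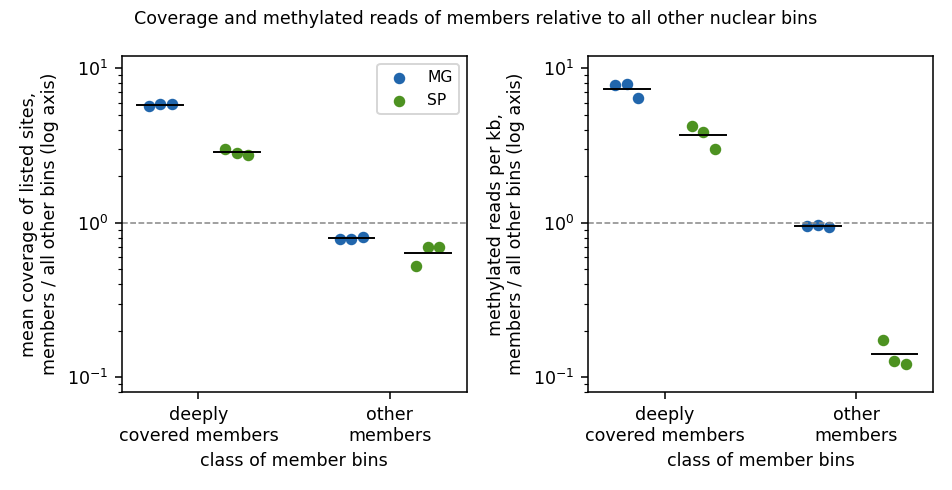
Mean coverage of listed sites (left) and methylated reads per kb (right), each as the ratio of members to all other nuclear bins on a log axis, 1 point per library with the mean as a line, for the 14 deeply covered and the 362 other members. MG and SP averaged 5.81 and 2.86 in coverage of the deeply covered members, and 0.956 and 0.141 in methylated reads of the other members.

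Over all members together, relative coverage was 1.56, 1.57 and 1.44 in MG and 1.59, 1.68 and 1.58 in SP. The difference of MG minus SP was -0.0898. Coverage includes the methylated reads of the listed sites, and those of MG chose the members, so no test is given. This pooled value mixes the 2 classes in unequal shares, since 42.6% to 46.0% of the listed member sites of an SP library and 12.4% to 15.6% of those of an MG library lay in the deeply covered bins. Without the 14 bins the difference was 0.155, higher in MG, and with each scaffold given the same weight it was 0.344. The pooled difference has therefore no stable direction.

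The context shares of the listed sites did not pass a test of difference between all members and other bins. In MG, CpG sites made up 22.0% ± 1.32 of the listed sites of members, against 22.2% ± 1.89 in all other nuclear bins (SD, n = 3 each). CHG sites made up 20.5% ± 0.269 in members and 19.9% ± 0.157 in other bins, and CHH sites 57.5% ± 1.08 and 58.0% ± 1.74. In SP, where the listed sites of members numbered 3292, 1012 and 1024, CpG sites made up 42.1% ± 12.1 in members and 48.6% ± 18.7 in other bins. Over the 6 libraries of MG and SP, the mean difference of members minus other bins was -3.38 percentage points for CpG, 0.56 for CHG and 2.81 for CHH, with adjusted p of 0.469, 0.281 and 0.469 (exact two-sided sign-flip permutation tests over 6 libraries, Benjamini-Hochberg over 3 contexts). The CpG and CHH means rested on SP2 and SP3. There the CpG difference was -10.7 and -10.0, against -0.77, -0.28 and 0.47 in MG1, MG2 and MG3 and 1.05 in SP1. The CHH difference was 8.94 and 9.84 in SP2 and SP3, against 0.07, -0.17 and -1.19 in MG1, MG2 and MG3 and -0.60 in SP1. The 14 deeply covered bins were set apart after their coverage had been seen. Without them the CpG difference turned to 2.52 percentage points and the CHH difference to -2.58, lower in members in 6 of 6 libraries. They were taken out of the members only, and no bin was taken out of the other nuclear bins. Their removal favours a lower CHH share in members, so no test is given and nothing is read from this turn. In the deeply covered bins themselves CpG sites were 7.83% ± 0.347 and CHH sites 70.3% ± 0.0453 of the listed sites in MG (SD, n = 3).

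The mean MLmc of listed sites was lower in members than in all other nuclear bins in 6 of 6 libraries of MG and SP. It was 0.126, 0.125 and 0.110 in the members in MG, against 0.135, 0.133 and 0.115 in other bins. It was 0.110, 0.123 and 0.127 in the members in SP, against 0.118, 0.142 and 0.138 in other bins. The mean difference was -0.0103. Methylated reads are the numerator of MLmc and those of MG chose the members, so no test is given. Without the 14 deeply covered bins the difference turned to 0.0247, higher in members in 6 of 6 libraries. These bins were taken out of the members only, so nothing is read from this turn. A site with 1 methylated read has a level of 1 over its coverage, so MLmc falls where coverage is high. In MG the mean MLmc was 0.0295 ± 0.000989 in the 14 deeply covered bins and 0.135 ± 0.0125 in the 362 other members (SD, n = 3 each), beside relative coverages of 5.81 and 0.795.

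Few member sites were listed again from one library to another. Of 110142 positions listed in members in any MG library, 103965 were listed in 1 library, 5822 in 2 and 355 in all 3, so 5.61% were listed more than once, against 4.17% in all other nuclear bins. The share was 20.5% in the deeply covered bins and 3.49% in the 362 other members. The 2 classes also differed in coverage, as given above, and the part of coverage in these shares was not tested. Over the 6 libraries of MG and SP, 1 member position was listed in all of them: the CpG at position 77990 of the minus strand of scaffold 1304. It had 13 methylated of 114 reads in MG1, 6 of 95 in MG2 and 17 of 163 in MG3, against 3 of 52 in SP1, 2 of 54 in SP2 and 2 of 39 in SP3. 

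Sites with 2 or more methylated reads made up 6.97% ± 0.527 of the listed member sites in MG, against 3.27% ± 0.443 in all other nuclear bins (SD, n = 3 each). This excess lay in the deeply covered bins, with 34.2% ± 5.46, while the 362 other members had 2.42% ± 0.408.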

How the data were processed

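Whole-genome bisulfite libraries of MG, FG and SP (3 each) were analysed. The authors aligned the reads with Bismark (named with FastQC in the submitters' processing notes) to the scaffolds of their assembly, whose release is not given in the sources used here, and deposited 1 list of methylated cytosines per library. The deposited counts are methylated and unmethylated reads per cytosine, not normalized. The deposited fraction is MLmc. The p-values and corrected p-values that the authors gave each site, from a test not named in the sources used here, were not used. Every listed site had at least 5 reads and 1 methylated read. No genome or annotation was used here, so no sequence or gene is given.

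Chloroplast and mitochondrial sites were left out. Methylated reads were summed in bins of 10 kb. A bin entered a fit if the compared libraries held 10 or more methylated reads there, and fits used edgeR 4.0.16 (quasi-likelihood, R 4.3.3), with the mapped reads the study gives (27541592 to 40719876 per library) as library sizes. Of 200 bins changed 4-fold in simulated data of MG against SP (57261 bins), 199 were recovered, and 8 unchanged bins were called. The simulated data held no stage difference outside the 200 bins, whereas 98.9% of the real bins were called higher in MG. The simulation therefore does not show how the fit behaves where most bins differ. Ratios and shares per library were compared by exact sign-flip permutation tests. Deviations of same-numbered MG and FG libraries from their stage means correlated at 0.102, 0.104 and 0.291. Correlations between libraries of different number were not computed, and the labels name no pairs, so no pairing is claimed. The planned tests of MLmc and of relative coverage are left out of the report, because MG methylated reads chose the members. DESeq2 1.42.0 was an alternative. The other steps used scipy 1.17.1, pandas 2.3.3 and numpy 2.4.6 in Python 3.11.15, and figures matplotlib 3.10.9.

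Named regions were the 10 scaffolds with most members, the 3 members with most and the 3 with fewest MG reads, the 3 with most SP reads, the 3 bins just outside each threshold and the flanks of the longest runs. The members and these lists were chosen with earlier results of these data known. The class of deeply covered members, scaffold 4577 and the mirrored bins were looked at after their values had been seen. The alternatives were other thresholds, bin lengths, site filters, scalings and weights, a replicate block, and leaving out each library in turn.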

Additional observations from a re-analysis of the deposited data

Results flagged for a closer look

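Relative to all other nuclear bins, the methylated reads per kb of the members lay above 1 in 3 of 3 MG libraries and below 1 in 3 of 3 SP libraries. The mean log2 ratio was 0.195 ± 0.0535 in MG and -2.03 ± 0.259 in SP (SD, n = 3 each). The opposite directions in the 2 stages drew attention to this result. The difference was not tested, because the MG reads had been used to choose the members. In MG the value above 1 rests on the 14 deeply covered bins, since the 362 other members were at 0.957, 0.974 and 0.936 times the other nuclear bins in MG1, MG2 and MG3, and at 0.176, 0.127 and 0.122 times in SP1, SP2 and SP3.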

How the results depend on the processing

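Of 115 values under alternatives, 86 kept their direction and their side of the threshold or stayed within 1.5 times. This tally includes the tests of MLmc and relative coverage that are left out above. Some values could not pass 0.05: the smallest p of the permutation tests was 0.1 for relative coverage and 0.25 for the SP ratio. Over 5 libraries it was 0.0625. The tally is therefore no measure of robustness. The number of members was 1016 with bins of 5 kb, 123 with bins of 20 kb, 40 with sites of at least 2 methylated reads and 3 under the mirrored rule, and 380 to 430 without 1 MG or FG library. The relative coverage of members, MG minus SP, turned to 0.0884 with sites covered by at least 10 reads, 0.0265 with median coverage, 0.344 with each scaffold given the same weight and 0.155 without the deeply covered bins. It was -0.113 to -0.0495 without 1 library. The CpG difference was -9.28 with at least 10 reads (p = 0.031, exact sign-flip permutation test). With at least 2 methylated reads the differences were 6.97 for CpG, -2.08 for CHG and -4.89 for CHH. As shares of methylated reads the CHG difference was 0.46 (p = 0.031, exact sign-flip permutation test). Both p-values are the smallest possible and were not adjusted over the 3 contexts, unlike those of the main setting. Neither is therefore read as a passed test. Without the deeply covered bins, taken out of the members only, the differences were 2.52 for CpG and -2.58 for CHH, and no test is given. The CpG, CHG and CHH differences were -4.26 to -1.91, 0.32 to 0.76 and 1.41 to 3.61 without 1 library. The difference in mean MLmc turned to 0.0247 without the deeply covered bins, again taken out of the members only. It was -0.0112 to -0.00842 without 1 library. The log2 ratio of member reads in SP was -2.17 to -1.91 without 1 SP library and -2.84 without the deeply covered bins.

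The number of members called higher in MG than in SP was 375, and 265 of 270 tested to 375 under every alternative, with 339 under TMM, 341 with nuclear methylated reads as library sizes and 324 under DESeq2. Over all tested bins the calls higher in MG were 2092 under TMM, 2199 with nuclear methylated reads as library sizes and 1307 under DESeq2, against 56835. The number called lower in FG than in SP, 145, was 226 without a filter, 11 with a minimum of 30 methylated reads, 10 of 15 tested with sites covered by at least 10 reads and 8 with sites of at least 2 methylated reads. Over all tested bins the shares called lower were 0.517%, 0.0936%, 0.0722% and 0.0926% in the same order, against 0.403%. Under DESeq2, 115 of 145 tested members were called lower, beside 0.818% of all tested bins. The number of members was 15 to 145 without 1 library, with 15 without SP replicate 1, 92 without SP replicate 2 and 95 without SP replicate 3. Beside these 3 stood 0.0674%, 0.324% and 0.319% of all tested bins. FG is 0 in the members by the rule, so nothing is read from these counts. With a replicate block the counts were 375 and 145. The deviations of same-numbered libraries from their stage means correlated at -0.00754 to 0.0637 for MG and SP and at 0.0134 to 0.0518 for FG and SP. Whether these values differ from those of libraries of different number was not tested. For MG and FG, where same-numbered libraries correlated at 0.102 to 0.291, the number of all bins called higher in MG was 5688 with a replicate block, against 4900 without it, and 4397 to 7026 without 1 library. With the block, as without it, all 376 members were called higher in MG than in FG. The cause of these changes was not tested, except that fewer bins reach the stricter filters. Single SP values rest on few reads, with 5, 1 and 1 methylated reads in the median member.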
